A study of Mus musculus with 18 samples.

Results

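Physical contacts of the mouse interferon gamma gene, Ifng, were compared between Stat4 knockout CD4 T cells kept under Th1 conditions and Th1 cells for which no mutation is stated. The data are 4 of the 18 arrays of the study, chosen by title: 2 arrays of Stat4 KO Th1 cells and 2 arrays of Th1 cells, all with Ifng as the bait. The assay was 4C (circular chromosome conformation capture). Crosslinked chromatin was cut with HindIII and ligated, which links the bait to DNA that lay near it in the nucleus. These junctions were recut with Csp6I, circularised, amplified from the bait and hybridised in Cy5 against doubly cut genomic DNA of the same cells in Cy3. The value of a probe is the log2 ratio of the 2 channels, so a higher value means more DNA captured by the bait at that place relative to genomic DNA.

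The labels call both groups primary CD4+ T cells and give no strain, age, sex or kind of Stat4 allele, and nothing says that the arrays of a group came from separate animals. The p-values below therefore measure only the spread between arrays, which may be technical. Those of bins and bands pool this spread over all 10 Ifng arrays, including groups not compared here. The exact permutation tests use only the 4 compared arrays. The protocol text attached to the arrays speaks of adherent cells and of baits other than Ifng, and the design text refers to 1 pooled array that the labels leave unidentified. The arrays hold no expression values, so neither the loss of STAT4 nor the Th1 state of the cells was checked here.

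Ifng encodes the signature cytokine of T helper 1 cells. Interleukin 12 acts through its receptor and the kinases Jak2 and Tyk2 to activate STAT4, a transcription factor that enters the nucleus, binds DNA at Ifng and many other loci and promotes the Th1 programme together with T-bet, the product of Tbx21. T cells that lack STAT4 make little interferon gamma in response to interleukin 12. A gene's contacts in the nucleus are dominated by its own chromosome and decline with distance along it, and on top of that decline active genes tend to meet other active, gene-rich stretches.

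The bait gene itself carries a STAT-type motif close to its start, and the sequence is shown because STAT4 is the factor removed in the knockout cells. The 250 bases upstream of the Ifng start in RefSeq (GRCm38.p6, chr10:118440796-118441045, plus strand, another build than that of the arrays) read as follows, with the match to TTCNNNGAA and the match to TATAAA in capitals.
Ifng: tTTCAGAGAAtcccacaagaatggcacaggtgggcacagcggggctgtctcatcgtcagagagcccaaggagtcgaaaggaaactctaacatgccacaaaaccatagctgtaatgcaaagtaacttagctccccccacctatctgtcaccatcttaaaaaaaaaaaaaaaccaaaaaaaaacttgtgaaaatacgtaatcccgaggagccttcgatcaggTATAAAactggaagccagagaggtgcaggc
Both strands were searched. TTCNNNGAA, which reads the same on both strands, occurred once in this window and is held by 7.02% of the 32851 promoter windows of the same length, and TATAAA occurred once, against 12.4% of windows. The cutting sites AAGCTT of HindIII and GTAC of Csp6I did not occur in the window, and 6.22% and 31.5% of windows hold them. A match is a string of letters and shows no binding.

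Each array had 384942 probes at a median spacing of 5037 bp, of which 5.13% lie on chromosome 10. With 2 arrays a group, precision is limited by their number. Values were centred on each array's median off chromosome 10 and averaged in 500-kb bins, and positions are in mm8, the build inferred from the probe positions. The bait bin, chr10:117500001-118000000, was the bin with the highest mean over the 10 Ifng arrays. The Stat4 KO arrays resembled each other more than the Th1 arrays did, mainly off chromosome 10. Over bins of chromosome 10 the replicates correlated at r = 0.924 in Stat4 KO and 0.914 in Th1 (249 bins), and over bins of the other chromosomes at 0.461 in Stat4 KO and 0.171 in Th1 (4772 bins). Over probes they correlated at 0.216 in Stat4 KO and 0.149 in Th1. In the Stat4 KO pair 99.5% of the sorted probe values were equal within 0.011, against 42.8% in the Th1 pair. Equal sorted values mean that the arrays of a pair share a distribution, and say nothing of likeness at the same places. The only other pair with a low share was that of the Il4-bait Th2 arrays, at 10.8%. Over probes Th1 replicate 2 stood apart, with a correlation of 0.347 with replicate 2 of the Il4-bait Th2 arrays and 0.149 with its own replicate. Over bins off chromosome 10 Th1 replicate 1 was the less alike. It correlated with the Stat4 KO arrays at 0.070 and 0.167, against 0.300 and 0.260 for Th1 replicate 2. The counts of called bins and bands and the main differences near the bait and by percentile are also given without Th1 replicate 2. Counts of 50-kb windows, the farther distance classes and the ranking of bins by Th2 or naive signal are given only with that array. Both Stat4 KO arrays belong to 1 series of array serial numbers that holds neither Th1 array, so genotype and array series cannot be told apart. The Th1 arrays belong to different series from each other. That of Th1 replicate 2 also holds replicate 2 of the Il4-bait Th2 arrays.

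Ifng contacts declined less steeply away from the gene in Stat4 KO cells. With arrays centred only, the Stat4 KO arrays lay between the Th1 arrays within 1 Mb of the bait bin. In every distance class from 1 Mb outward on chromosome 10 both Stat4 KO arrays were above both Th1 arrays. In the farther classes this order depends on the scaling of the arrays, as given below. The mean log2 ratio within 1 Mb was 2.16 and 2.19 in the Stat4 KO arrays, against 2.09 and 2.52 in the Th1 arrays. The difference of -0.13 turned to 0.081 without Th1 replicate 2. The sides of the gene differed in order within 1 Mb, with 2.16 and 2.16 in Stat4 KO against 1.91 and 2.14 in Th1 on the telomeric side, and 2.09 and 2.11 in Stat4 KO against 2.18 and 2.54 in Th1 on the centromeric side. At 1 to 2 Mb it was 1.70 and 1.71 in Stat4 KO, against 1.15 and 0.69 in Th1. The groups did not overlap, and both Th1 arrays had lost much more of their signal over this step. The drop from the first class to the second was 0.47 ± 0.02 in Stat4 KO and 1.38 ± 0.62 in Th1 (SD, n = 2 each), a difference of -0.91, which became -0.47 without Th1 replicate 2. The exact two-sided permutation test gave p = 0.333, the smallest that 2 against 2 arrays allow.

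**Figure D1:**
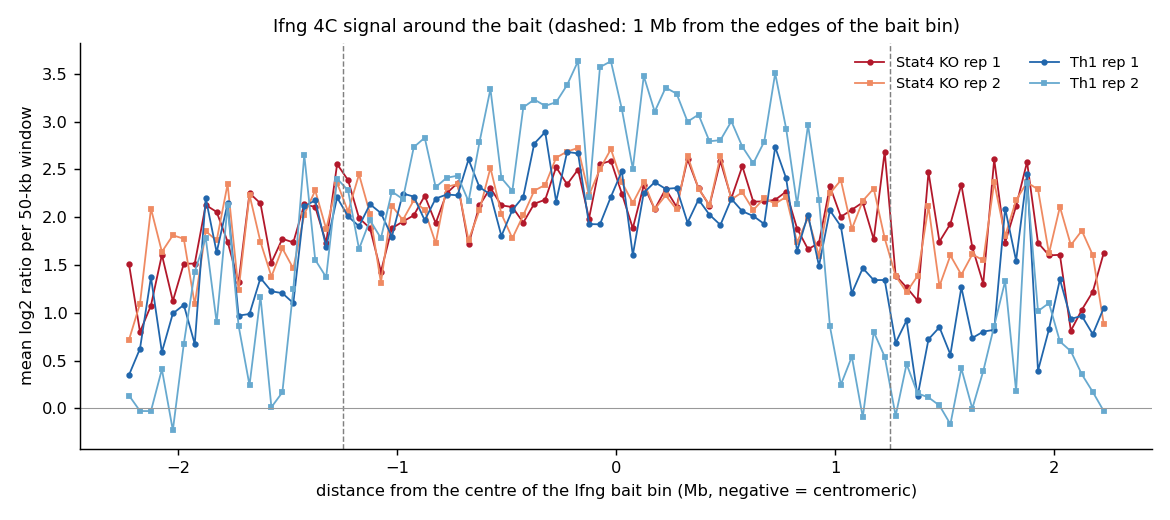
Mean log2 ratio in 50-kb windows around the Ifng bait for each array, against distance from the centre of the bait bin, with dashed lines 1 Mb from its edges. From within 1 Mb to 1 to 2 Mb the Stat4 KO arrays drop by 0.46 and 0.48, against 0.94 and 1.82 in the Th1 arrays, and Th1 replicate 2 is the highest array over the bait bin.

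The 50-kb windows differed between the groups mainly beyond 1 Mb. Within 1 Mb of the bait bin, both Stat4 KO arrays exceeded both Th1 arrays in 7 of 50 windows and were below both in 16. Over all 50-kb windows of the genome the shares were 20.9% above and 17.9% below. From 1 to 2 Mb they exceeded both in 29 of 40 windows and were below both in 0. On the telomeric side at 1 to 2 Mb the means were 1.67 and 1.70 in Stat4 KO, against 1.00 and 0.48 in Th1. On the centromeric side they were 1.73 and 1.72 in Stat4 KO, against 1.30 and 0.90 in Th1. The groups were therefore apart on both sides of the gene. In the other T cells of the study the drop was 0.93 and 0.60 in naive cells and 0.80 and 0.49 in Th2 cells, against 0.46 and 0.48 in Stat4 KO cells and 0.94 and 1.82 in Th1 cells. The drops of the Stat4 KO arrays were below those of all 4, though close to the smallest. The drop of Th1 replicate 1 was close to the largest, so by this measure Th1 replicate 2 alone stood far outside. The drop depends on the starting level, which was higher in naive and Th2 arrays. As a ratio, the log2 level at 1 to 2 Mb over that within 1 Mb was 0.79 and 0.78 in Stat4 KO and 0.55 and 0.28 in Th1. It was 0.71 and 0.78 in naive and 0.76 and 0.85 in Th2 cells. By the ratio both Th1 arrays lay below these 4 and the Stat4 KO arrays within their range.

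Farther out the gap between the groups narrowed in absolute terms. At 2 to 5 Mb the mean was 1.03 and 1.18 in Stat4 KO, against 0.63 and 0.40 in Th1. At 5 to 10 Mb it was 0.62 and 0.78 in Stat4 KO, against 0.46 and 0.33 in Th1. At 80 Mb and beyond, near the centromeric end, it was 0.22 and 0.17 in Stat4 KO, against 0.15 and 0.09 in Th1. In each of these classes the 2 Stat4 KO arrays lay above the 2 Th1 arrays with arrays centred only, and the exact permutation p was again 0.333. The Stat4 KO arrays had the larger relative spread off chromosome 10, 1.03 and 1.14, against 0.65 and 0.68 in Th1. Divided by these values, the groups overlap in every class from 5 Mb outward.

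**Figure D2:**
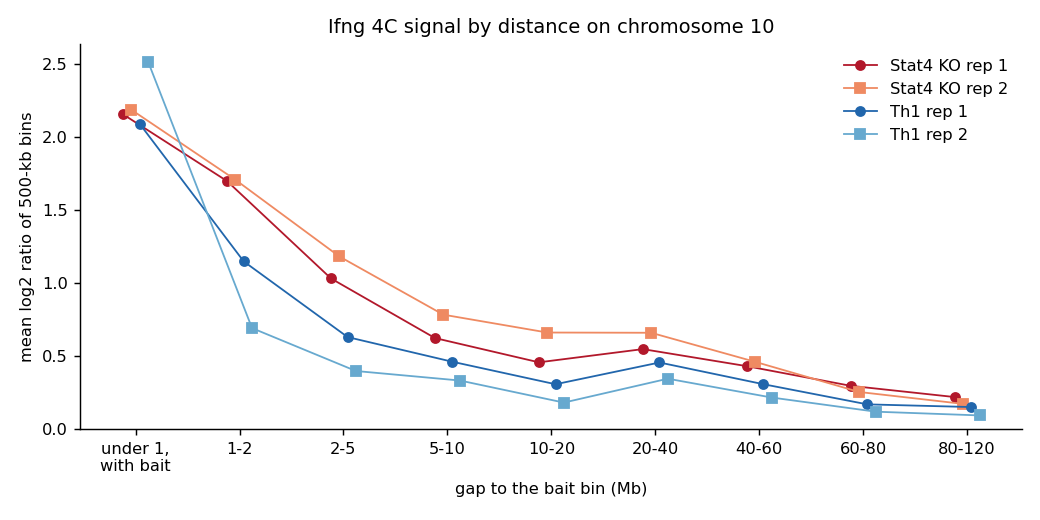
Mean log2 ratio of 500-kb bins on chromosome 10 by the gap between a bin and the Ifng bait bin, one line per array. The order of the arrays changes between the first class, where Th1 replicate 2 is highest at 2.52, and the next, where it is lowest at 0.69.

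Farther from the gene, with arrays centred only, the Stat4 KO arrays were above the Th1 arrays at middling signal as well as near the top of the range. Over the 233 bins of chromosome 10 that lie 5 Mb or more from the bait bin, the median bin had 0.33 and 0.36 in the Stat4 KO arrays, against 0.17 and 0.09 in the Th1 arrays. At the 75th percentile the values were 0.57 and 0.64 in Stat4 KO, against 0.38 and 0.24 in Th1. At the 95th percentile they were 0.94 and 1.05 in Stat4 KO, against 0.88 and 0.73 in Th1. The arrays did not overlap at any of these, but Th1 replicate 1 came close to Stat4 KO replicate 1 at the top. The difference of the means was 0.21 at the median, 0.30 at the 75th percentile and 0.18 at the 95th (exact p = 0.333 for each). Without Th1 replicate 2 these were 0.17, 0.23 and 0.11. Whether these differences differ among themselves was not tested. The order also depends on scaling. Divided by each array's relative spread off chromosome 10, the Th1 arrays lie above the Stat4 KO arrays at the 95th percentile. The groups then overlap at the 75th percentile and keep their order at the median. The places of an array's highest probes also differed. Of the highest 1% of probes, 30.7% and 29.9% were on chromosome 10 in the Stat4 KO arrays, against 41.8% and 36.8% in the Th1 arrays. Of the highest 5%, 22.8% and 23.4% were there in Stat4 KO, against 19.9% and 13.0% in Th1. Stat4 KO arrays had the smaller share of the most extreme probes on the bait chromosome and the larger share of the moderately high ones.

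**Figure D3:**
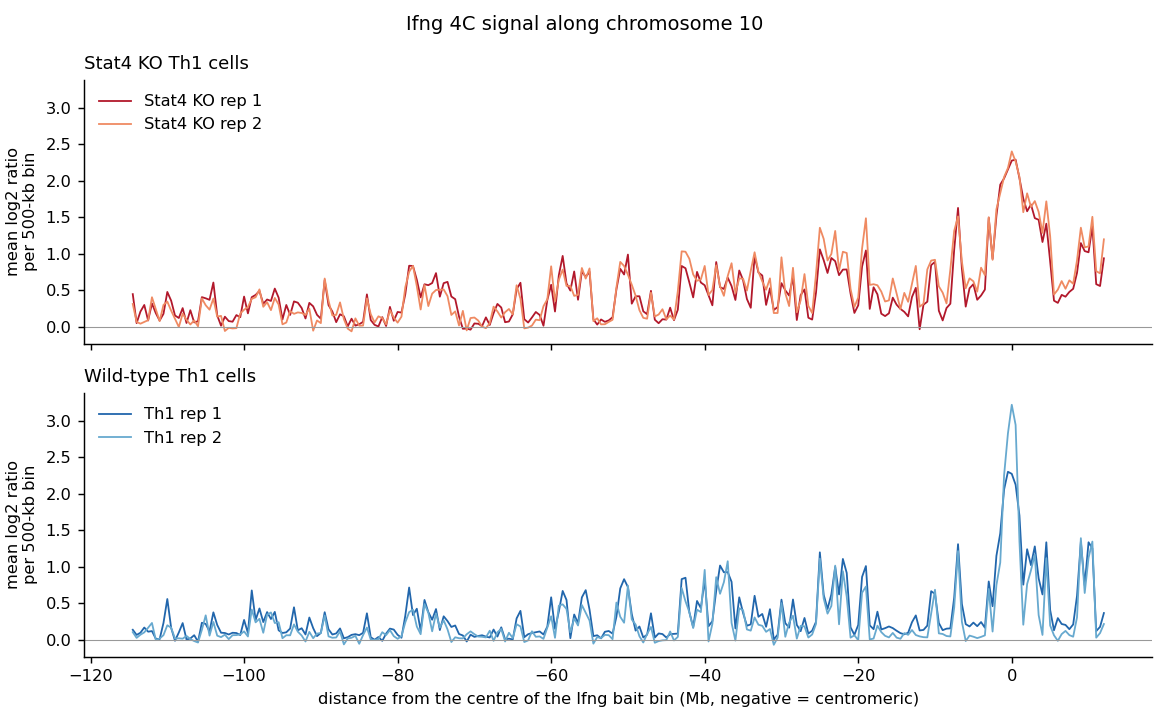
Mean log2 ratio per 500-kb bin along chromosome 10 against distance from the Ifng bait bin, with the Stat4 KO arrays above and the Th1 arrays below. The mean profiles of the groups correlate at r = 0.848 over 249 bins, and the median bin 5 Mb or more from the bait bin lies at 0.33 and 0.36 in the Stat4 KO arrays, against 0.17 and 0.09 in the Th1 arrays.

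The bins that passed the test were nearly all higher in Stat4 KO cells. Of 5021 bins, leaving out those within 1 Mb of the bait bin, 95 passed (1.89%): 94 were higher (1.87%) and 1 was lower (0.0199%) by limma with Benjamini-Hochberg adjustment at 0.05. On chromosome 10 itself 69 of 249 bins were higher (27.7%), and on the other chromosomes 25 of 4772 (0.524%). Leaving out Th1 replicate 2 left 30 bins, of which 28 were higher, and 29 of the 95 bins were among them. Leaving out Stat4 KO replicate 2 gave 57, with 45 of the 95 bins among them. With the distance decay of each array removed, 20 of 249 bins of chromosome 10 passed, 3 higher and 17 lower in Stat4 KO. Once each array was divided by the spread of its bins off chromosome 10, 2 bins were higher (0.0398%) and 7 lower (0.139%), together 0.179% of bins, and 3 of the 95 bins were among these 9. The Stat4 KO arrays had the larger spread, with relative values of 1.03 and 1.14, against 0.65 and 0.68 in Th1. The median change over chromosome 10 was 0.04 with this scaling and 0.17 without it. For bins near these values the direction of change depends on the scaling.

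**Figure D4:**
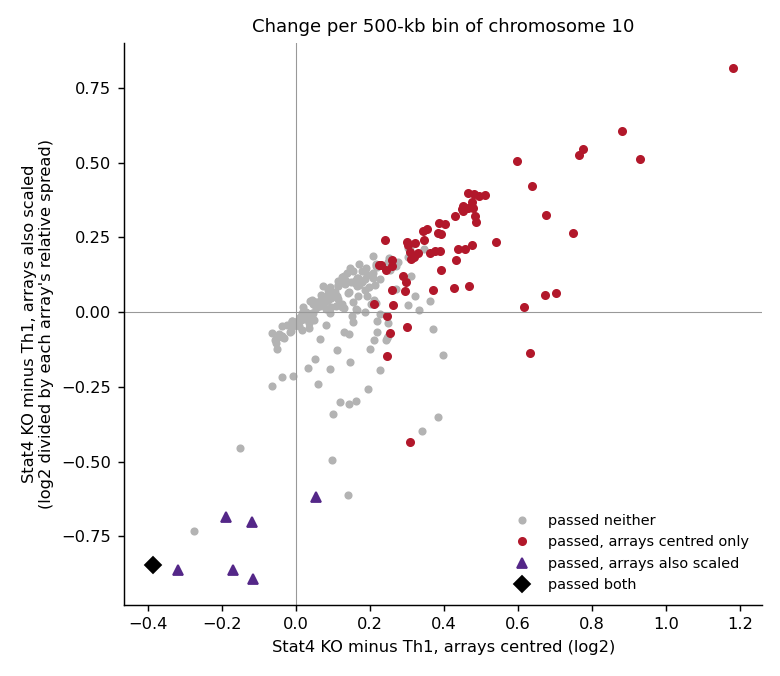
Change of each 500-kb bin of chromosome 10, Stat4 KO minus Th1, with arrays centred only (horizontal axis, log2) and with arrays also divided by their relative spread off chromosome 10 (vertical axis). The 69 bins that passed as higher lie to the right, none of them passed after scaling, and the bins that passed as lower after scaling lie at the bottom.

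The called bins of chromosome 10 merged into 36 higher regions with changes of 0.21 to 0.90. The regions were chosen by this difference, so nothing is read from the order of their arrays. Both Stat4 KO arrays were above both Th1 arrays in 33.9% of all bins and in 163 of the 249 bins of chromosome 10. The median level of the regions was 0.57 in Stat4 KO and 0.22 in Th1, and leaving out Th1 replicate 2 kept 14 of the 21 named regions on and off the chromosome that passed.

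On the telomeric side of Ifng, in band 10qD3, a stretch with little contact in Th1 cells had more in Stat4 KO cells with arrays centred only. The region chr10:128500001-130000000 had 0.69 and 0.89 in the Stat4 KO arrays, against 0.22 and 0.11 in the Th1 arrays, a change of 0.63 (best-bin SE 0.07, adjusted p = 1.01e-05 by limma). Of its 183 probes, 31.1% and 35.5% were among the highest 5% of the array in Stat4 KO, against 15.3% and 8.20% in Th1. The region chr10:125000001-126500000 had 0.58 and 0.71 in Stat4 KO, against 0.32 and 0.14 in Th1 (change 0.42, adjusted p = 0.000717 by limma). Neither region passed after scaling (adjusted p = 0.0664 for each by limma). With the distance decay removed, the change of chr10:125000001-126500000 turned to -0.12. Between these stretches, chr10:126500001-127000000 stood at 1.14 and 1.35 in Stat4 KO, against 1.34 and 1.39 in Th1, and chr10:127500001-128000000 at 1.02 and 1.10 in Stat4 KO, against 1.33 and 1.12 in Th1. In the first of these the arrays of the groups overlapped, and in the second the lower Th1 array stood only just above the higher Stat4 KO array. Neither passed with arrays centred only (adjusted p = 0.607 and 0.198), and both passed as lower in Stat4 KO once arrays were scaled (adjusted p = 0.0335 and 0.0060 by limma).

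On the centromeric side in band 10qD1, chr10:99500001-100000000 had 0.54 and 0.58 in Stat4 KO, against 0.14 and 0.02 in Th1 (change 0.48, adjusted p = 6.78e-05 by limma). Its level was 0.36 and 0.28 in naive cells and 0.86 and 0.84 in Th2 cells. In band 10qB4, which lies over 50 Mb from the bait bin, chr10:60000001-60500000 had 0.49 and 0.56 in Stat4 KO, against 0.02 and 0.10 in Th1 (change 0.47, adjusted p = 6.78e-05 by limma). There naive cells were far higher, with 1.49 and 1.53, and Th2 cells had 0.75 and 0.62. In the same band chr10:62500001-63000000 had 0.75 and 0.80 in Stat4 KO, against 0.41 and 0.26 in Th1 (change 0.44, adjusted p = 0.000419 by limma). Naive cells had 1.66 and 1.58 in this second region and Th2 cells 0.54 and 0.40. These regions were chosen by the difference between Stat4 KO and Th1, so nothing is read from where either stands beside naive or Th2 cells. Among the 36 higher regions of chromosome 10, both naive arrays were above both Stat4 KO arrays in 20 and below in 11. Both Th2 arrays were above in 20 and below in 9. After scaling, the regions starting at 99500001, 60000001 and 62500001 did not pass (adjusted p = 0.0637, 0.0714 and 0.466 by limma).

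A single bin fell in Stat4 KO cells with arrays centred only. In band 10qC1, 37 Mb from the bait bin, chr10:80000001-80500000 had 0.52 and 0.42 in the Stat4 KO arrays, against 0.92 and 0.79 in the Th1 arrays. The groups did not overlap, as in 12.7% of all bins with both Stat4 KO arrays below both Th1 arrays, the change was -0.39 (SE 0.08, adjusted p = 0.0154 by limma), and the bin also passed after scaling (adjusted p = 0.00463). Naive cells had 1.14 and 0.90 there and Th2 cells 0.50 and 0.24. The bin beside it, chr10:80500001-81000000, had 0.67 and 0.69 in Stat4 KO, against 0.93 and 1.07 in Th1, with an adjusted p of 0.0556 centred and 7.23e-06 scaled by limma. It did not pass with arrays centred only.

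Another 3 bins passed as lower only after scaling. These were chr10:77500001-78000000 in 10qC1, chr10:92500001-93000000 in 10qC2 and chr10:95500001-96000000 in 10qC3. With arrays centred only their changes were -0.19, 0.05 and -0.12, and none passed (adjusted p = 0.383, 0.835 and 0.648 by limma). For chr10:92500001-93000000, which had 1.06 and 1.35 in Stat4 KO against 1.20 and 1.11 in Th1, the direction itself depends on the scaling.

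**Figure D5:**
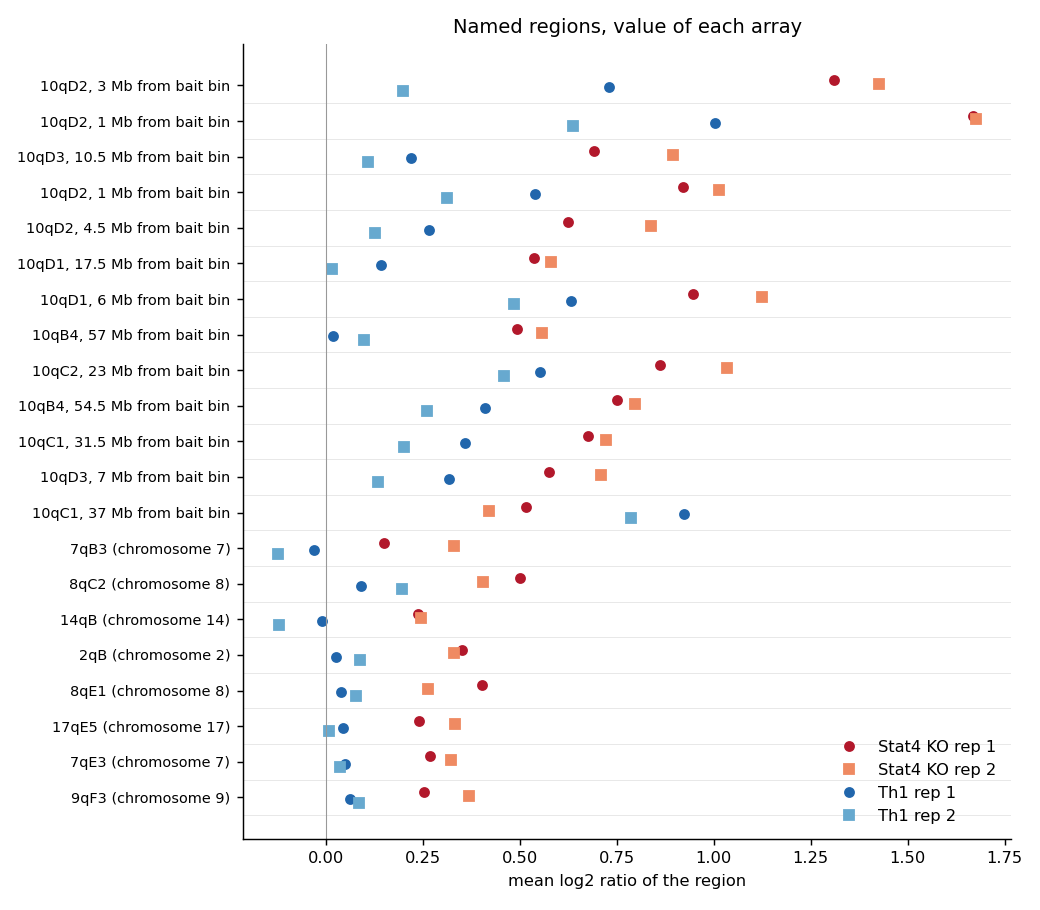
Mean log2 ratio of the named regions in each array, labelled by cytogenetic band and, on chromosome 10, by the gap to the bait bin. The Stat4 KO points lie to the right of the Th1 points in 20 of 21 regions. The exception is the region of 10qC1 at 37 Mb. The regions were chosen by this difference, so the order of the points follows from the choice and nothing is read from it.

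Along the whole chromosome the Stat4 KO contact profile was closer to that of Th2 cells than the Th1 profile was. Over 249 bins the Stat4 KO mean correlated with the Th2 mean at r = 0.842, and the Th1 mean at 0.573. Against the single Th2 arrays, Th1 replicate 1 had 0.609 and 0.619 and Th1 replicate 2 had 0.484 and 0.483. With naive cells the values were 0.740 for Stat4 KO and 0.736 for Th1. The Stat4 KO and Th1 means correlated at 0.848 with each other, so the Stat4 KO profile was no closer to Th2 cells than to Th1 cells. These are descriptions over bins that share the bait and its distance decay, and bins are not replicates. When bins were ranked by their Th2 signal, 41 of the 62 bins with the highest values were called higher in Stat4 KO than in Th1, beside 3 of the 63 with the lowest. Ranked by naive signal, the counts were 24 of the 62 highest and 7 of the 63 lowest. Over the whole chromosome the count was 69 of 249 (27.7%). These counts are for arrays centred only, and none of the 69 bins passed after scaling by spread. The bins ranked highest by Th2 signal also had more signal in Th1 cells, with a mean of 0.43, against 0.08 in the lowest. The counts therefore follow signal level as well and are not read as likeness to Th2 cells.

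Contacts were also called in each array on its own. A bin was called where it held more of the array's highest 5% of probes than chance placing gives (one-sided binomial test, Benjamini-Hochberg at 0.05). On chromosome 10, of 254 bins, 150 and 144 were called in the Stat4 KO arrays, against 109 and 62 in the Th1 arrays. Both Stat4 KO arrays shared 128 of them and both Th1 arrays 61. Of these, 60 were common to all 4 arrays, which is 46.9% of the Stat4 KO set and 98.4% of the Th1 set. In 29 bins both Stat4 KO arrays and neither Th1 array were called, and in 0 bins the reverse. With the highest 2% of probes 117 and 96 bins were called in the Stat4 KO arrays, against 105 and 74 in the Th1 arrays, so the groups overlapped. Bins shared by both arrays of a group were 80 in Stat4 KO and 73 in Th1, with 51 in common, and 13 bins were called in Stat4 KO alone and 8 in Th1 alone.

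Off chromosome 10 the differences were small. The mean over bins was higher in both Stat4 KO arrays than in both Th1 arrays on 18 of 20 other chromosomes, with a median difference of 0.02. The largest, 0.08 on X, came mainly from 1 array. The Stat4 KO arrays had 0.07 and 0.18 there, against 0.06 and 0.03 in Th1. On Y, with 5 bins, they had 0.10 and -0.10, against 0.12 and 0.21 in Th1. The 25 higher bins formed 23 regions on 12 chromosomes with changes of 0.18 to 0.32. Their median level was 0.25 in Stat4 KO and 0.01 in Th1. Of these regions 2 also passed after scaling. In band 14qB, chr14:42500001-43000000 had 0.24 and 0.25 in Stat4 KO, against -0.01 and -0.12 in Th1 (adjusted p = 0.00237 centred and 0.0399 scaled by limma). In band 7qB3, chr7:42500001-43000000 had 0.15 and 0.33 in Stat4 KO, against -0.03 and -0.12 in Th1 (adjusted p = 0.00539 centred and 0.0356 scaled by limma). These 2 bins hold few probes, 28 and 25, and neither passed without Th1 replicate 2 (adjusted p = 0.0801 and 0.131 by limma).

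The highest of the 8 largest gains off chromosome 10 in level was in band 8qC2, where chr8:84500001-85000000 had 0.50 and 0.41 in Stat4 KO, against 0.09 and 0.20 in Th1 (change 0.31, adjusted p = 0.00663 by limma). It was 1 of 2 bins off chromosome 10 called as a contact in both Stat4 KO arrays and neither Th1 array. Naive cells had 0.50 and 0.33 there and Th2 cells -0.05 and -0.08. The longest region off chromosome 10, chr2:31500001-33000000 in band 2qB, spans 3 bins and had 0.35 and 0.33 in Stat4 KO, against 0.03 and 0.09 in Th1 (change 0.28, adjusted p = 0.00539 by limma).

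Genes could be placed only in cytogenetic bands, so a gene takes the value of its whole band and need not lie in a bin that changed. Of 383 bands 15 passed (3.92%), all higher in Stat4 KO, with 9 of 16 on chromosome 10 (56.2%) and 6 of 367 elsewhere (1.63%). None passed after scaling by spread by limma, where 53 had an unadjusted p under 0.05, and none without Th1 replicate 2 (91 unadjusted) or without Stat4 KO replicate 2 (87 unadjusted). With the distance decay removed, 9 of the 16 bands of chromosome 10 passed, all lower in Stat4 KO. Over all bands the median change was 0.03, on chromosome 10 it was 0.15 and elsewhere 0.03.

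The band of the bait, 10qD2, had 1.03 and 1.16 in Stat4 KO, against 0.65 and 0.38 in Th1, a change of 0.58 (SE 0.09, adjusted p = 0.0203 by limma). Bins within 1 Mb of the bait bin, the bait bin included, are left out of this value, and the difference there was -0.13. All 11 genes of the list for the Ifng neighbourhood, Ifng included, lie in the band, among them Il22, a cytokine of the interleukin 10 family, Mdm2, the ubiquitin ligase of p53, and Dyrk2, a protein kinase. These 11 genes share 1 value and count as 1 band.

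Of the genes of the interleukin 12 and STAT4 pathway and the Th1 programme, 31 of 33 could be placed, in 25 bands with a median change of 0.05. Bands of 4 of them were higher. Ifng is one only through the rest of its band, since the bins within 1 Mb of the bait bin, where the difference was -0.13, are left out. Another 2 lie on chromosome 10. They are Prf1, which encodes perforin, in 10qB4 (change 0.21, adjusted p = 0.0203 by limma) and Gadd45b, a signalling adaptor induced in Th1 cells, in 10qC1 (change 0.20, adjusted p = 0.0382 by limma). The only one elsewhere was Hlx, a homeobox factor that works with T-bet, in 1qH5, with 0.13 and 0.11 in Stat4 KO, against 0.03 and 0.04 in Th1 (change 0.08, adjusted p = 0.0382 by limma). It is 1 of 21 bands of the list off chromosome 10. The band that holds Stat4, 1qC1.1, had 0.04 and 0.05 in Stat4 KO, against 0.06 and 0.05 in Th1, and did not pass (change -0.01, SE 0.02). The band of Il12rb2, the inducible chain of the interleukin 12 receptor, had a change of 0.01 (SE 0.02). That of Tbx21 had 0.11 in both Stat4 KO arrays, against 0.05 and 0.07 in Th1 (change 0.05, adjusted p = 0.153 by limma). The receptors and kinases of the pathway and T-bet thus lay in bands that did not pass.

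Of 11 placed genes of the Th2 programme 1 lay in a band that was higher. This was Stat6, the factor that answers to interleukin 4, in 10qD3 (change 0.34, adjusted p = 0.0203 by limma), on the bait chromosome. The band of Il4, Il5 and Il13, the Th2 cytokine genes, had 0.10 and 0.09 in Stat4 KO, against 0.04 and 0.05 in Th1, and did not pass (change 0.05, adjusted p = 0.103 by limma). Of 13 placed genes of naive and all T cells, among them Ccr7, Il7r and Lef1, none lay in a band that passed by limma. The median change of their bands was 0.03, beside 0.03 over all bands. Of these genes 5 lay in bands with an unadjusted p under 0.05 by limma, a level reached by 131 of all 383 bands. It was 19 of 31 genes of the interleukin 12, STAT4 and Th1 list and 8 of 11 of the Th2 list, where some genes share bands. The difference between the lists was not tested.

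On chromosome 10, lists of immune genes and of genes of other tissues share bands, so their counts are not independent. Of 29 placed immune genes 23 lay in higher bands, 7 of 9 bands. They include Fyn, a kinase of T cell receptor signalling, in 10qB1, Prdm1, which encodes the repressor Blimp-1, in 10qB2, Socs2, an inhibitor of cytokine signalling, in 10qC2, and Stat2 and Il23a in 10qD3. Of 14 placed neuronal and tissue genes 11 lay in higher bands, 4 of 5 bands. They include Syt1, the synaptic calcium sensor, and Kitl, the ligand of the receptor Kit, in 10qD1. Myb, Tnfaip3 and Ifngr1, the gene of a chain of the interferon gamma receptor, lie in 10qA3, far from the bait, which had 0.36 and 0.28 in Stat4 KO, against 0.28 and 0.20 in Th1, and did not pass (adjusted p = 0.101 by limma). The difference between the 2 lists, and of either from the 9 of 16 bands of the whole chromosome, was not tested.

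Gene-rich bands had more signal in most arrays. Off chromosome 10 the correlation between protein-coding genes per megabase and band signal was 0.61 and 0.37 in the Stat4 KO arrays, against -0.03 and 0.45 in the Th1 arrays (367 bands). Th1 replicate 1 stood apart from the other arrays in this. On chromosome 10 it was 0.46 and 0.45 in Stat4 KO, against 0.47 and 0.60 in Th1 (16 bands). Bands of one array are not independent, and gene counts come from another build, so these are descriptions.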

How the data were processed

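Values are log2 ratios of Cy5-labelled 4C DNA over Cy3-labelled genomic DNA per probe, as deposited, labelled per the labels' protocols; the base, background correction, within-array normalization and genome build are not given in the sources used here, the base was taken as 2, and the equal sorted values of most replicate pairs come with the files. The build, mm8, was inferred: 0 of 21 chromosomes had a probe past the chromosome end, against 11 for mm7, 5 for mm9 and 8 for mm10. Arrays were grouped by title, centred on their median off chromosome 10 and averaged in 500-kb bins of at least 20 probes. limma 3.58.1 in R 4.3.3 (lmFit, contrasts, eBayes) was fitted to all 10 Ifng arrays, two-sided, with Benjamini-Hochberg adjustment at 0.05 over all bins or bands. Adjacent called bins of 1 direction were merged. A region's change is the mean over its bins, and its SE and adjusted p are those of its best bin. Bands came from circlize 0.4.16. Genes from RefSeq GRCm38.p6 were placed in bands, leaving out those within 500 kb of a band edge. Tables were made with pandas 2.3.3, numpy 2.4.6, statsmodels 0.14.6 and scipy 1.17.1 in Python 3.11.15 and figures with matplotlib 3.10.9, and the fit was tested on simulated data. Named regions are, on chromosome 10, at most 12 in each direction with the largest change, elsewhere at most 8, every bin called with and without scaling, at most 8 in each direction after scaling, and, where under 5 bins pass, the 3 of smallest p. Named bands are those called and those of the listed genes. The comparison, its members and the gene lists were chosen with earlier results of these data known. Alternatives were other bin sizes, summaries, scalings, arrays in the fit and blocks, and each array left out in turn.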

Additional observations from a re-analysis of the deposited data

How the results depend on the processing

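Against 95 called bins, bins of 200 kb gave 56, medians in place of means 5, the share of an array's highest 5% of probes 23, quantile normalization 31 (21 higher and 10 lower), scaling by spread 9, scaling by the mean 1 to 2 Mb from the bait 10 (5 higher and 5 lower), removal of the distance decay on chromosome 10 20 of 249 (3 higher and 17 lower), eBayes with trend and robust settings 47, leaving out chromosome 10 19, and the array series as a random block 178 (consensus correlation -0.175). Leaving out single arrays gave 30 to 135. Other settings stayed within 1.5 times. The replicate block gave 88 bins, and since the deviations of same-numbered arrays correlated at -0.118 the numbers do not pair the arrays, and the crossed replicate block gave 106. The random block, the crossed block, scaling by the mean within 1 Mb of the bait and the drop and percentiles without Th1 replicate 2 were chosen after seeing the data. The array series as a fixed block was not run, because the Stat4 KO arrays have a series of their own. Against 15 called bands, 0 passed with the median, the share of highest probes, quantile normalization, either of the first 2 scalings, the 4 compared arrays alone or chromosome 10 left out by limma (27 to 119 had an unadjusted p under 0.05), 34 passed with scaling by the mean within 1 Mb of the bait, 9 (all lower, of 16) with the distance decay removed, 8 with the replicate block and 33 with the array series as a random block, and leaving out single arrays gave 0 to 28. Of 21 named called regions, the median kept 3, the share of highest probes 11, quantile normalization 13, scaling by spread 3, scaling by the mean 1 to 2 Mb away 4, removal of the decay 3 of 13, and 8 of 8 were kept with chromosome 10 left out, and leaving out single arrays kept 14 to 19. With the decay removed, regions of chromosome 10 starting at 119000001, 112000001, 122500001, 109500001 and 125000001 turned to -0.10, -0.26, -0.12, -0.086 and -0.12, and scaling by the mean 1 to 2 Mb away turned those starting at 109500001 and 93000001 to -0.028 and -0.026. Bins of 1000 kb turned those starting at 77500001, 95500001, 126500001 and 127500001 to 0.016, 0.083, 0.13 and 0.075. The median turned those starting at 77500001 and 127500001 to 0.098 and 0.080, bins of 200 kb turned that at 126500001 to 0.0057, and that at 95500001 became 0.011 without extreme probes and, without single arrays, -0.24 to 0.0039 (positive without Stat4 KO replicate 1). The bin starting at 92500001 turned to -0.012 by the share of highest probes, -0.32 by quantile normalization, -0.62 by spread, -0.98 by the mean 1 to 2 Mb away, -0.28 with the decay removed and, without single arrays, -0.095 to 0.20 (negative without Stat4 KO replicate 2). Within 1 Mb of the bait the difference of -0.13 became -0.68 with quantile normalization, -1.43 scaled by spread, -2.32 scaled by the mean 1 to 2 Mb away and 0.092 without extreme probes, and -0.34 to 0.081 without single arrays, positive without Th1 replicate 2. At 1 to 2 Mb the difference of 0.78 became 0.42 with quantile normalization and 0.19 scaled by spread, and 0.55 to 1.01 without single arrays. With the highest 2% of probes both Stat4 KO arrays shared 80 bins, against 128, and with bins of 1000 kb 80. The causes of these changes were not tested.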
